A study of Canis lupus familiaris with 10 samples.

Results

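Aminoacyl-tRNA synthetases join each amino acid to its transfer RNA, the step that fixes the genetic code before the ribosome reads it. The cytosol and the mitochondrion use largely separate sets of these enzymes, both encoded in the nucleus, and the mitochondrial enzymes carry names ending in ARS2. GARS1 and KARS1, the glycyl and lysyl enzymes, serve both compartments, and both were counted with the cytosolic set here. Several cytosolic enzymes assemble into a multi-synthetase complex on the scaffold proteins AIMP1, AIMP2 and EEF1E1. In mouse and human cells many cytosolic synthetase genes are targets of ATF4, a transcription factor induced when amino acids run short or proteins misfold.

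The gene set held 38 members, 19 cytosolic synthetases or synthetase subunits, 16 mitochondrial synthetases and the 3 scaffold proteins. Each member was represented by the array probe set annotated with that symbol alone and, where several existed, by the one with the highest mean over all arrays. All 38 were measured, among 15947 genes with such a probe set and 32391 probe sets in all, and no member was lost to a filter.

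The arrays came from CLBL-1 and 17-71, established canine B-cell lymphoma lines derived from lymph node. Treated cells had received 100 nM of PR220, an inhibitor of the arginine methyltransferase PRMT5, and control cells had received no inhibitor (0 nM). The paper describes the 0 nM controls of its other assays as given the solvent DMSO. Cells or lines called untreated below are these control cells. CLBL-1 was collected at day 2, with 3 control and 2 treated arrays, and 17-71 at day 4, with 2 control and 3 treated arrays. Since each line had a single day, a difference between lines and a difference between days cannot be told apart, and each line stands for itself rather than for canine lymphoma. The study describes its experiments as biological replicates, the labels number the replicates without naming separate cultures, and the p-values measure the spread between these arrays.

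The deposited values were log2 intensities, with a median of 3.75 over all probe sets and arrays. Arrays of a group correlated at r = 0.990 to 0.993 across all probe sets, and arrays of different lines at 0.935 to 0.939. All 10 measured B-cell markers lay above the array median in CLBL-1, whereas 6 of 10 did so in 17-71 controls and 5 in 17-71 treated cells, where MS4A1 (CD20) was near the floor at a mean of 2.19 in controls against 12.03 in CLBL-1 controls. The median of the B-cell marker means was 3.91 in 17-71 controls and 3.86 in treated 17-71 cells, near the array median, against 8.75 in CLBL-1 controls. The name of 17-71 as a B-cell line is the study's, and these markers bore it out only weakly. Summed over the B-cell markers, CLBL-1 controls ranged from 87.3 to 88.3 and treated CLBL-1 cells from 86.2 to 86.5, while 17-71 ranged from 42.7 to 43.3 in controls and from 41.6 to 44.7 in treated cells. Of 9 measured T and NK cell markers, 3 lay above the array median in CLBL-1, with CD3G highest at a mean of 8.96 in controls, and 2 in 17-71, with CD2 highest at 8.18, while CD3E was near the floor in both lines. Their summed level ranged from 37.3 to 38.1 in CLBL-1 controls and from 38.1 to 38.2 in treated CLBL-1 cells, and from 33.2 to 33.9 in 17-71 controls and from 32.7 to 33.3 in treated 17-71 cells. Of 9 myeloid markers, 2 lay above the array median in CLBL-1 and 4 in 17-71, with LYZ highest in both lines. Summed myeloid markers were higher in 17-71. They ranged from 48.9 to 49.6 in 17-71 controls and from 50.1 to 50.9 in treated 17-71 cells. In CLBL-1 they ranged from 34.5 to 35.6 in controls and from 34.4 to 35.7 in treated cells. The part of any of these markers in the results below was not tested.

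Across both lines together, treatment lowered 3 synthetase genes. PARS2, the mitochondrial prolyl enzyme, fell 1.64-fold, FARSA, the catalytic subunit of the cytosolic phenylalanyl enzyme, fell 1.29-fold, and IARS1, the cytosolic isoleucyl enzyme, fell 1.26-fold. No member passed the test in the higher direction, though 20 of 38 had a positive common change. FARS2 was called higher under 3 alternative settings and RARS1 under 1 of them, the variance trend. Calls over all tested probe sets rose there too. They were 1404 of 32391 with the trend, 925 of 16545 with single-symbol probe sets and 1421 of 17651 without dim probe sets. The 3 lower calls were lost with a replicate block, as the closing section gives. Among all probe sets 1.27% were called lower and 0.324% higher in this comparison (adjusted p below 0.05, two-sided limma test with Benjamini-Hochberg adjustment over all probe sets), so that 3 of 38 members stand beside 410 of 32391 probe sets. Among the 15947 genes with a single-symbol probe set, 325 were called lower and 80 higher.

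PARS2 read 5.36, 5.48 and 5.73 in CLBL-1 controls and 4.81 and 4.67 in treated CLBL-1 cells. The 17-71 values were 4.94 and 4.77 in controls and 4.16, 4.16 and 4.34 in treated cells. Treated arrays were the low ones in both lines, with no overlap. The common change, the mean of the 2 lines' differences, was -0.71 (SE 0.0887, adjusted p = 0.00957), made up of -0.78 (SE 0.135) in CLBL-1 and -0.64 (SE 0.112) in 17-71. PARS2 had the lowest p of the 38 members in 17-71 and the most negative change of all members in both lines. It was also dim. Its mean of 4.22 in treated 17-71 cells was the lowest group mean of any member, beside a median of 3.75 over all probe sets and arrays. Its cytosolic counterpart EPRS1, which charges both glutamate and proline, differed by 0.01 in CLBL-1 and -0.10 in 17-71.

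IARS1 read 9.14, 9.10 and 9.17 in CLBL-1 controls and 8.64 and 8.65 in treated CLBL-1 cells. The 17-71 arrays gave 9.54 and 9.53 in controls and 9.34, 9.31 and 9.43 in treated cells. The groups were separate in each line, and the gap was wider in CLBL-1. The common change was -0.33 (SE 0.0519, adjusted p = 0.0231), with -0.49 in CLBL-1 and -0.17 in 17-71. IARS2, its mitochondrial counterpart, differed by -0.07 in CLBL-1 and 0.01 in 17-71.

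FARSA read 7.91, 7.76 and 7.89 in CLBL-1 controls and 7.32 and 7.36 in treated CLBL-1 cells. The 17-71 arrays read 6.81 and 6.77 in controls and 6.56, 6.64 and 6.48 in treated cells. Again every treated array was below every control array of its line. The common change was -0.37 (SE 0.059, adjusted p = 0.0246), with -0.51 in CLBL-1 and -0.23 in 17-71. The study had named FARSA from these same arrays, so its call here is not independent evidence of its direction.

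FARSB encodes the other subunit of the same enzyme, which works as a tetramer of both chains. It read 9.67, 9.81 and 9.74 in CLBL-1 controls and 9.93 and 9.86 in treated CLBL-1 cells, a difference of 0.16, opposite in sign to FARSA. In 17-71 it read 8.65 and 8.61 in controls and 8.76, 8.65 and 8.75 in treated cells, a difference of 0.09 with overlapping groups. Neither difference of FARSB passed the test, and the difference between the subunits was not tested. FARS2, the mitochondrial phenylalanyl enzyme, read higher in treated cells. It gave 5.53, 5.45 and 5.36 in CLBL-1 controls and 5.90 and 5.90 in treated CLBL-1 cells. In 17-71 the values were 6.21 and 6.03 in controls and 6.16, 6.53 and 6.31 in treated cells. The CLBL-1 groups were separate and the 17-71 groups overlapped. The common change of FARS2 was 0.33 (SE 0.084, adjusted p = 0.108), the highest of the 38 members and short of the threshold, and a second FARS2 probe set gave 0.32 (adjusted p = 0.158).

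Leaving out single arrays limited these calls. Calls over all 32391 probe sets, 410 lower and 105 higher in the full fit, also fell. They were 185 to 305 in the fits that kept at least 2 arrays in every group. PARS2 was called without any of the 10 arrays in turn (adjusted p = 0.019 to 0.0494), IARS1 was called only without replicate 3 of treated 17-71 cells and lost in the other 9 fits (adjusted p up to 0.0964), and FARSA was lost in 8 of 10 (up to 0.102), being called without replicate 2 of treated 17-71 cells and without replicate 2 of CLBL-1 controls.

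**Figure D1:**
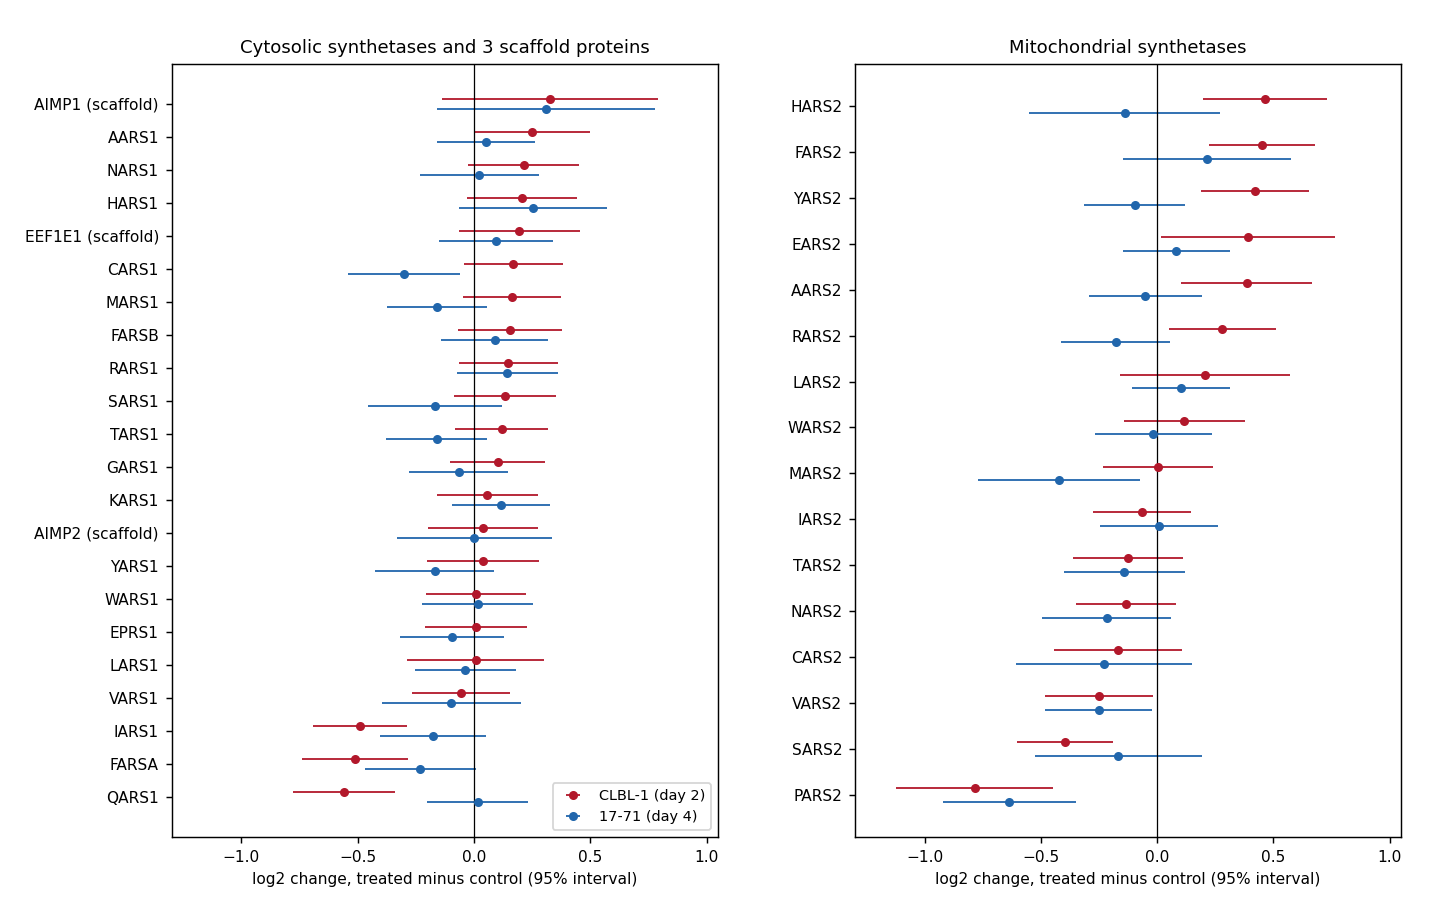
Treated minus control log2 change of each of the 38 members in CLBL-1 and in 17-71, with 95% intervals of the limma fit. PARS2 lies lowest in both lines, at -0.78 and -0.64.

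No other member passed the test in the common change. QARS1, the cytosolic glutaminyl enzyme, was nearest, with a common change of -0.27 (SE 0.0535, adjusted p = 0.0503). It was called lower under 6 alternative settings, listed in the closing section with their calls over all probe sets, and not with a replicate block. By unadjusted p below 0.05 the common change was higher for 7 members and lower for 8, beside 6.93% and 7.55% of all probe sets. Treated and control arrays were separate in both lines, in the same direction, for 3 members that were higher (AARS1, HARS1 and RARS1) and 5 that were lower (PARS2, IARS1, FARSA, VARS2 and NARS2), beside 3.08% and 3.79% of all probe sets. VARS2, the mitochondrial valyl enzyme, had a common change of -0.25 (adjusted p = 0.0841), with the same difference of -0.25 in each line. HARS1, the cytosolic histidyl enzyme, read 7.30, 7.27 and 7.29 in CLBL-1 controls and 7.40 and 7.58 in treated CLBL-1 cells. The values in 17-71 were 6.31 and 6.22 in controls and 6.70, 6.49 and 6.38 in treated cells. The treated arrays were the higher ones in both lines, and the common change of 0.23 did not pass the test (adjusted p = 0.21). RARS1, the cytosolic arginyl enzyme of the complex, read 9.38, 9.43 and 9.32 in CLBL-1 controls and 9.52 and 9.52 in treated CLBL-1 cells. It read 9.06 and 9.00 in 17-71 controls and 9.14, 9.21 and 9.17 in treated cells. The shifts of RARS1 were alike in size, 0.15 in CLBL-1 and 0.14 in 17-71, with a common adjusted p of 0.243.

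**Figure D2:**
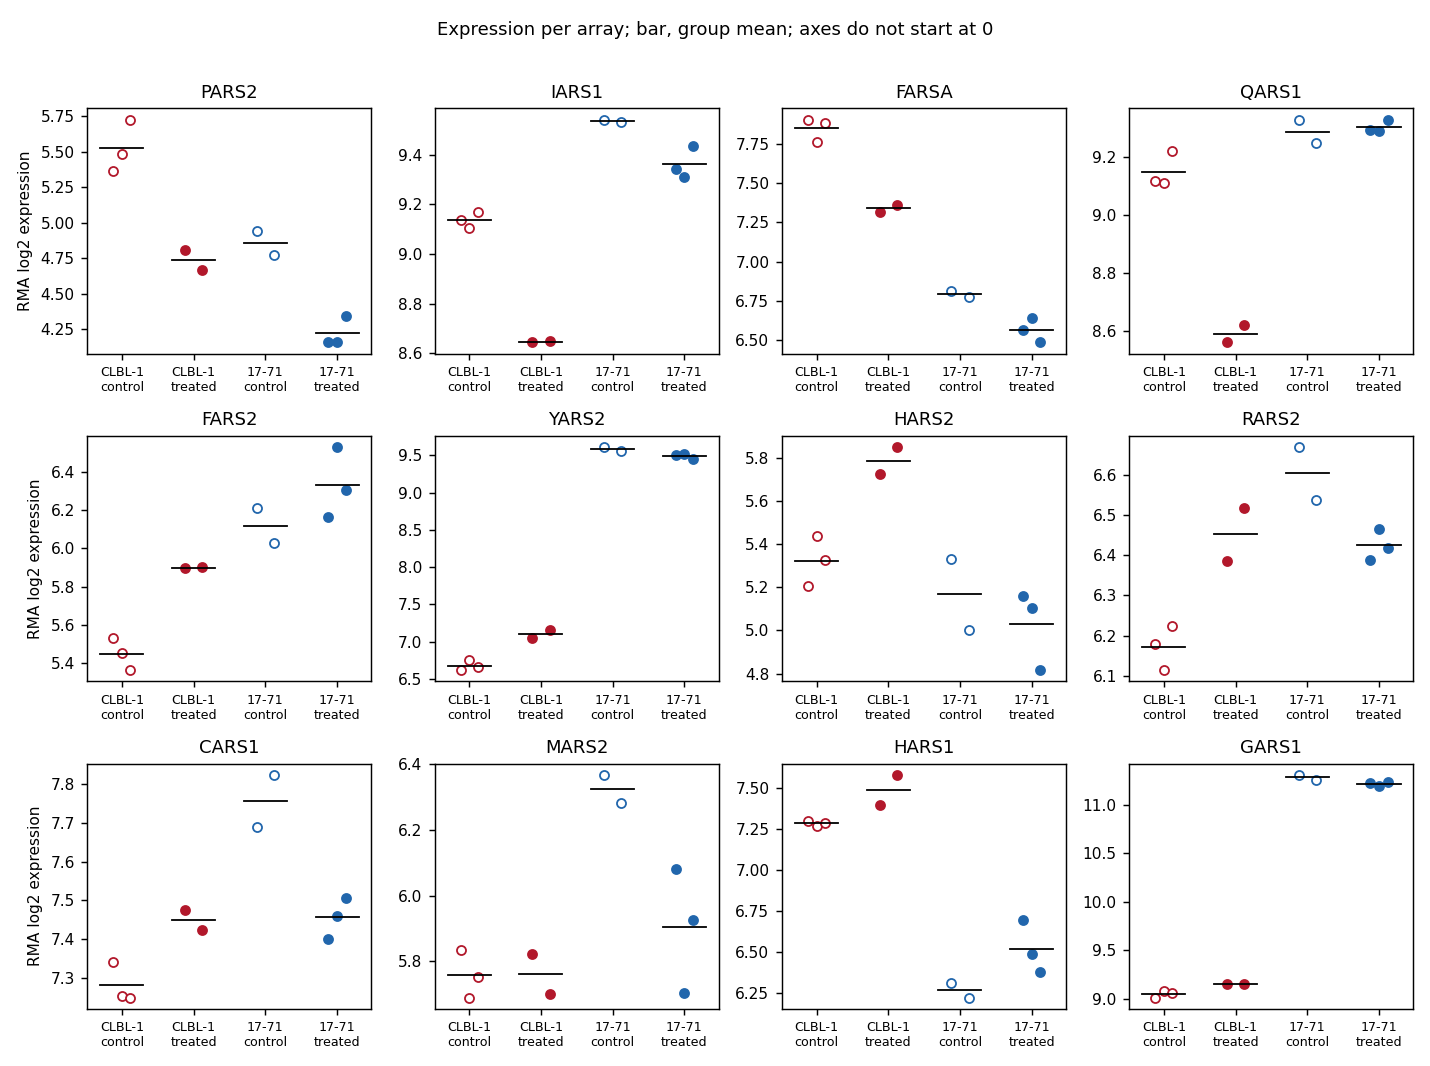
Deposited log2 intensity of selected members on each of the 10 arrays, by line and treatment, with group means. For PARS2, IARS1 and FARSA every treated array lies below every control array of its line.

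In CLBL-1 taken alone, 0 of 38 members passed the adjusted threshold, beside 43 of 32391 probe sets (0.133%). At unadjusted p below 0.05, 7 members were higher and 6 lower, whereas 6.83% and 6.89% of all probe sets were. Treated and control arrays did not overlap for 17 members that were higher and 9 that were lower, beside 16.9% and 15.5% of all probe sets. The members with the smallest p were QARS1 and IARS1, followed by PARS2 and FARSA, all lower after treatment. These 4 were each called when the variances were fitted with a trend, when all 10 arrays shared a variance, when dim probe sets were left out or when probe sets with a single symbol were tested alone (5, 5, 6 and 5 members called). Calls over all tested probe sets rose in the same settings, to 1310 of 32391, 607 of 32391, 750 of 17651 and 605 of 16545.

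QARS1 read 9.12, 9.11 and 9.22 in CLBL-1 controls and 8.56 and 8.62 in treated CLBL-1 cells, with no overlap. The difference was -0.56 (SE 0.0882, adjusted p = 0.107). In 17-71 QARS1 read 9.33 and 9.25 in controls and 9.29, 9.29 and 9.33 in treated cells, where the groups overlapped and the difference was 0.02 (95% interval -0.20 to 0.23). The adjusted p-values in CLBL-1 were 0.114 for IARS1, 0.117 for PARS2 and 0.122 for FARSA. SARS2, the mitochondrial seryl enzyme, differed by -0.40 (adjusted p = 0.156), whereas its cytosolic counterpart SARS1 differed by 0.13.

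On the higher side in CLBL-1, the members with the smallest p were mitochondrial enzymes: FARS2 at 0.45 (SE 0.0917, adjusted p = 0.15), YARS2 at 0.42 (SE 0.0931, adjusted p = 0.168) and HARS2 at 0.46 (SE 0.107, adjusted p = 0.178). YARS2, the tyrosyl enzyme, read 6.62, 6.76 and 6.67 in CLBL-1 controls and 7.05 and 7.16 in treated CLBL-1 cells. HARS2, the mitochondrial histidyl enzyme, read 5.21, 5.44 and 5.32 in controls and 5.72 and 5.85 in treated cells. Both had separate groups in CLBL-1. In 17-71 HARS2 read 5.33 and 5.00 in controls and 5.16, 5.10 and 4.82 in treated cells, which overlapped. HARS1 and HARS2 are direct neighbors in the RefSeq annotation of the dog assembly UU_Cfam_GSD_1.0, with no bases between them. The change of HARS1 beside that of HARS2 was 0.21 and 0.46 in CLBL-1, and 0.25 and -0.14 in 17-71. AARS2, the mitochondrial alanyl enzyme, differed by 0.38 in CLBL-1 (adjusted p = 0.252), and EARS2, the mitochondrial glutamyl enzyme, by 0.39 (adjusted p = 0.345).

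In 17-71 taken alone, 0 of 38 members and 0 of 32391 probe sets (0%) passed the adjusted threshold, and no alternative processing gave a member. Over all probe sets, 35 of 32391 were called with the variance trend and 15 of 32391 when all 10 arrays shared a variance. At unadjusted p below 0.05, 0 members were higher and 4 lower, beside 4.08% and 4.93% of all probe sets. The arrays did not overlap for 5 members that were higher and 15 that were lower, beside 14.1% and 13.8%. The 4 were PARS2 (adjusted p = 0.467), CARS1, MARS2 and VARS2. CARS1, the cytosolic cysteinyl enzyme, read 7.69 and 7.83 in 17-71 controls and 7.40, 7.46 and 7.51 in treated cells, a difference of -0.30 (SE 0.0954, adjusted p = 0.52). MARS2, the mitochondrial methionyl enzyme, read 6.37 and 6.28 in controls and 6.08, 5.70 and 5.93 in treated cells, a difference of -0.42 (SE 0.137, adjusted p = 0.52). Treated arrays of CARS1 and MARS2 all lay below the controls. The same genes did not read lower in CLBL-1. There CARS1 gave 7.34, 7.25 and 7.25 in controls and 7.47 and 7.42 in treated cells, while MARS2 gave 5.83, 5.69 and 5.75 in controls and 5.82 and 5.70 in treated cells.

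The 3 scaffold proteins had positive differences in both lines, from 0.04 for AIMP2 to 0.33 for AIMP1 in CLBL-1 and from 0.0018 for AIMP2 to 0.31 for AIMP1 in 17-71, and none passed the test. AIMP1, which is also released as a cytokine precursor in human cells, read 6.62, 7.18 and 6.99 in CLBL-1 controls and 7.15 and 7.37 in treated CLBL-1 cells. In 17-71 it read 5.87 and 5.54 in controls and 6.25, 6.02 and 5.77 in treated cells. Its groups overlapped in both lines. EEF1E1 read 6.68, 6.89 and 6.70 in CLBL-1 controls and 6.99 and 6.92 in treated CLBL-1 cells, which were separate. In 17-71 it read 7.78 and 7.64 in controls and 7.78, 7.76 and 7.87 in treated cells, which overlapped.

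The medians of both compartments were above 0 in CLBL-1 and below 0 in 17-71. In CLBL-1 15 of 19 cytosolic and 9 of 16 mitochondrial members had a positive difference, with medians of 0.10 and 0.061, while the median over all probe sets was 0.0057. In 17-71 8 of 19 cytosolic and 4 of 16 mitochondrial members had a positive difference, with medians of -0.066 and -0.14 against 0.0092 over all probe sets. The CLBL-1 mitochondrial median was 0.0019 without replicate 1 of treated cells and 0.031 without replicate 2 of controls. In 17-71 it was -0.060 without replicate 1 of controls and -0.093 without replicate 3 of treated cells, and the cytosolic median was -0.038 without replicate 1 of controls. The mean log2 level of the 16 mitochondrial members, relative to the control mean of the line, was -0.133, -0.136 and -0.132 on the treated 17-71 arrays and 0.040 and -0.040 on the 17-71 controls. In CLBL-1 the corresponding values were 0.037 and 0.062 in treated cells and -0.0047, -0.0034 and 0.0080 in controls. The mean of the 19 cytosolic members was -0.059, -0.055 and -0.035 on treated 17-71 arrays, and 0.0059 and 0.012 on treated CLBL-1 arrays, where the control arrays ranged from -0.021 to 0.015. These means are a description, as a score over members carries no p here. In the cytosolic set of CLBL-1 the mean lay near 0 and the median above it, since the differences of IARS1, FARSA and QARS1 were far more negative than those of the other 16.

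**Figure D3:**
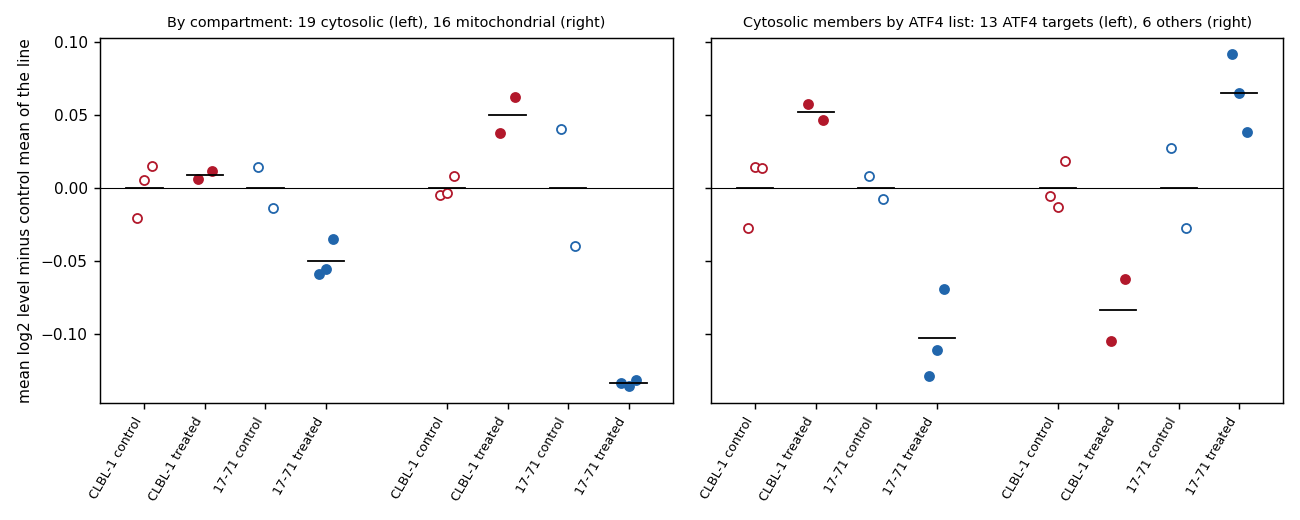
Mean log2 level of the 19 cytosolic and the 16 mitochondrial members on each array, relative to the control mean of its line. The 3 treated 17-71 arrays lie at -0.132 to -0.136 for the mitochondrial members, below both control arrays.

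Among 17 cytosolic and mitochondrial pairs for the same amino acid, in which EPRS1 and FARS2 each stood in more than a single pair, both enzymes had a difference of the same sign in 11 pairs in CLBL-1, 8 in 17-71 and 11 in the common change. The phenylalanyl pair FARSA and FARS2 and the prolyl pair described above were among those that differed most.

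The members were also split by the lists of known ATF4 targets. The 13 synthetases regarded as ATF4 targets in mouse or human had a median difference of 0.10 in CLBL-1, with 11 positive and 2 negative, and -0.097 in 17-71, with 3 positive and 10 negative. The mean over these 13 was 0.057 and 0.046 on the treated CLBL-1 arrays and -0.129, -0.111 and -0.069 on the treated 17-71 arrays, relative to the controls. The 6 other cytosolic synthetases gave medians of 0.10 in both lines. Their mean was -0.105 and -0.063 on the treated CLBL-1 arrays, opposite in sign to the median because of QARS1 and FARSA, and 0.091, 0.065 and 0.038 on the treated 17-71 arrays. ATF4 itself had a difference of 0.18 in CLBL-1 (adjusted p = 0.422) and -0.17 in 17-71 (adjusted p = 0.618), with separate groups in each line. Of 16 ATF4 pathway regulators, 12 had a positive difference in CLBL-1 (median 0.10) and 3 in 17-71 (median -0.14).

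The difference of the responses, CLBL-1 minus 17-71, was called for 0 of 38 members, beside 10 of 32391 probe sets (0.0309%). At unadjusted p below 0.05, 8 members were more positive in CLBL-1 and 3 more negative, beside 5.92% and 5.36% of all probe sets. For 7 members treated and control arrays were separate in both lines in opposite directions, always higher in treated CLBL-1 cells and lower in treated 17-71 cells, and for 0 the other way, beside 2.22% and 1.76%. QARS1 had the smallest p, with a difference of -0.57 (SE 0.107, adjusted p = 0.129). It passed with a fitted variance trend (adjusted p = 0.00574) and after dim probe sets were left out (0.0338). YARS2 differed by 0.52 (SE 0.112, adjusted p = 0.175), having read 9.61 and 9.56 in 17-71 controls and 9.50, 9.52 and 9.45 in treated 17-71 cells. CARS1 differed by 0.47 (SE 0.114, adjusted p = 0.206), and YARS2 and CARS1 also passed with the variance trend (0.0221 and 0.0488). RARS2, the mitochondrial arginyl enzyme, read 6.18, 6.11 and 6.22 in CLBL-1 controls and 6.39 and 6.52 in treated CLBL-1 cells. In 17-71 it read 6.67 and 6.54 in controls and 6.39, 6.47 and 6.42 in treated cells. Its groups were separate in both lines, in opposite directions, with a difference of 0.46 (SE 0.118, adjusted p = 0.224).

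More members differed between the untreated lines than between treated and control cells. Of the 38 members, 28 differed between CLBL-1 and 17-71 controls, 15 higher in CLBL-1 and 13 lower, beside 16.8% and 14.7% of all probe sets. Many of those probe sets are unnamed or dim. Among 15947 genes with a single-symbol probe set, 3458 were higher in CLBL-1 and 3228 lower. With dim probe sets left out, 10211 of 17651 probe sets differed. The balance of directions moved with normalization. Quantile normalization gave 12 members higher in CLBL-1 and 14 lower, beside 10129 of 32391 probe sets called. Cyclic loess gave 10 higher and 15 lower, beside 10022 of 32391. YARS2 was 7.49-fold lower in CLBL-1, a log2 difference of -2.91 (SE 0.0793, adjusted p = 2.78e-08). GARS1, the glycyl enzyme, read 11.31 and 11.25 in 17-71 controls and 9.02, 9.08 and 9.06 in CLBL-1 controls, a difference of -2.23 (adjusted p = 5.78e-08). After treatment the 17-71 arrays gave 11.23, 11.19 and 11.23, and the CLBL-1 arrays 9.15 and 9.16, so that the lines stayed far apart. EEF1E1 was also lower in CLBL-1, by -0.95 (adjusted p = 6.45e-05). AIMP1 was 2.34-fold higher in CLBL-1 (1.23, adjusted p = 0.00132). Both subunits of the phenylalanyl enzyme were higher in CLBL-1, FARSB by 1.11 (adjusted p = 8.49e-06) and FARSA by 1.06 (adjusted p = 1.49e-05). By compartment, 10 cytosolic members were higher in CLBL-1 and 6 lower, 3 mitochondrial members were higher and 6 lower, and the scaffolds AIMP1 and AIMP2 were higher and EEF1E1 lower. By structural class of the catalytic core, class I counted 4 higher and 9 lower, and class II 9 higher and 3 lower.

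**Figure D4:**
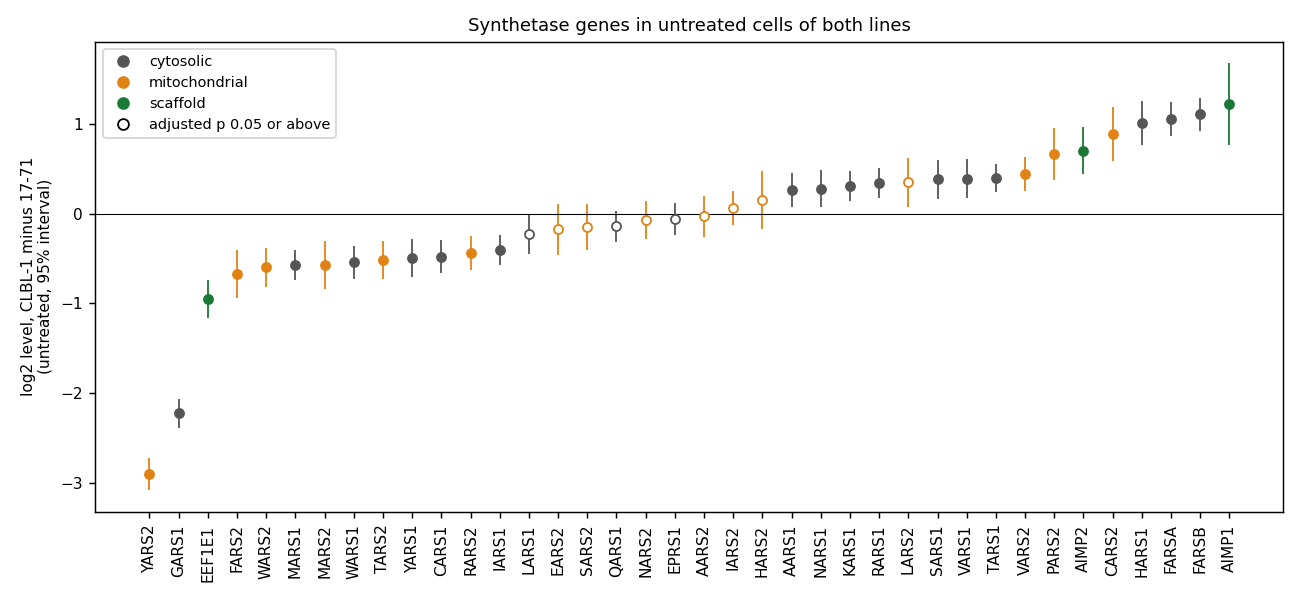
Log2 level in untreated CLBL-1 minus untreated 17-71 cells for the 38 members, with 95% intervals, where open points did not pass adjusted p 0.05. YARS2 (-2.91) and GARS1 (-2.23) lie far below the other members.

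Other steps in the life of a tRNA also held called genes, to be read beside the 1.27% of all probe sets called lower and 0.324% called higher in the common change. Of 15947 genes with a single-symbol probe set, 325 were called lower and 80 higher there. Of 47 tRNA modification genes, 4 were called in the common change: OSGEPL1, the mitochondrial enzyme that adds threonylcarbamoyl to adenosine, at -0.65 (adjusted p = 0.00255), the dihydrouridine synthase DUS4L at -0.55 (0.0042), the pseudouridine synthase PUS7 at -0.33 (0.0379) and the guanosine methyltransferase subunit TRMT11 at 0.48 (0.0212). The study had also named PUS7 as lower from these same arrays, so its call here is not independent evidence of its direction. Of 18 genes of the RNA polymerase III machinery, which transcribes tRNA genes, 2 were called, GTF3C2 at -0.61 (0.00957) and POLR3C at -0.52 (0.0126). POLR3C was also the sole gene of these lists called in CLBL-1 alone, at -0.93 (0.0485), where 0.133% of all probe sets were called. Of 15 amino acid carriers SLC43A2, which transports neutral amino acids, was called at -0.38 (0.023). None of the 14 auxiliary factors of charging, 20 tRNA processing and export genes, 6 cytosolic elongation factors, 10 mitochondrial translation factors or 16 ATF4 regulators was called in any of the 4 treatment comparisons. Mitochondrial translation factors had the highest list median in CLBL-1, 0.24 with 8 of 10 positive, against 0.045 with 6 of 10 positive in 17-71. The tRNA modification genes had 30 of 47 positive differences in CLBL-1 (median 0.12) and 17 of 47 in 17-71 (median -0.052), and tRNA processing and export genes 15 of 20 (median 0.12) and 8 of 20 (median -0.059). Of 15 amino acid carriers, 8 were positive in CLBL-1 (median 0.033) and 3 in 17-71 (median -0.16).

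**Figure D5:**
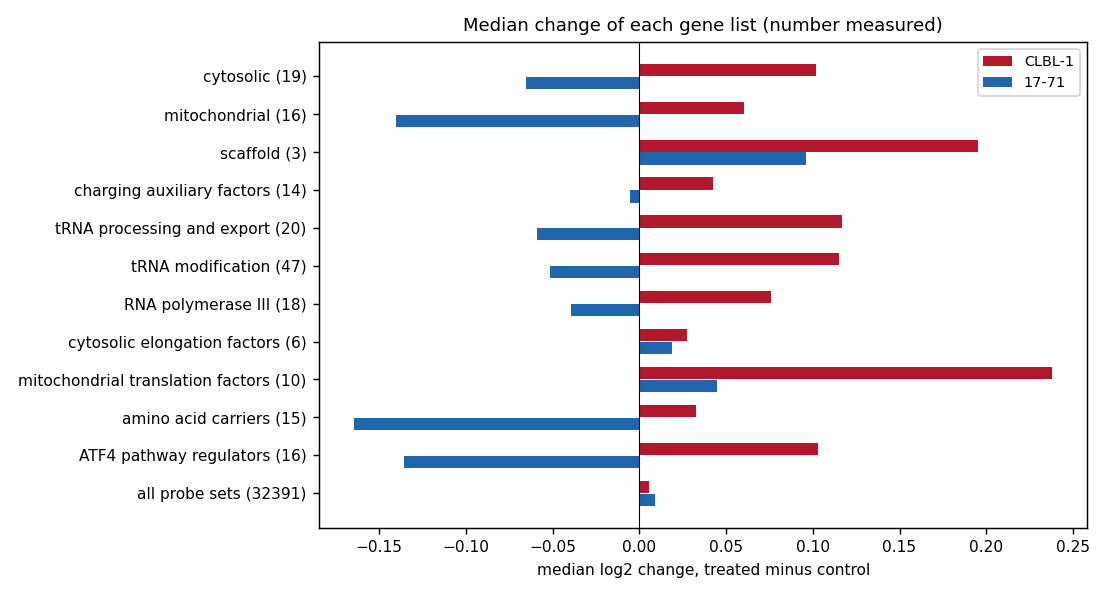
Median log2 change, treated minus control, of the 3 member groups and of 8 other gene lists in CLBL-1 and 17-71, beside the median over all probe sets, with the number of measured genes in brackets. The mitochondrial synthetases lie at 0.061 in CLBL-1 and -0.14 in 17-71, and the amino acid carriers at 0.033 and -0.16.

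Because RNA came from whole cultures and every array was brought to a common distribution, a smaller share of cells expressing a gene and less RNA per cell cannot be told apart. The 95% interval of a member's change extended by a median of 0.232 on either side in CLBL-1, 0.243 in 17-71 and 0.149 for the common change, so most differences of single members were within the error of these few arrays.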

How the data were processed

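Total RNA of 10 samples was hybridized to Affymetrix canine whole-transcript arrays, 1 array per sample. The authors deposited log2 expression values made by RMA in Affymetrix Expression Console, which corrects background, brings arrays to a common distribution and summarizes probes. RMA, Expression Console and limma are named in the submitters' processing notes without versions, and no source used here states whether both lines were normalized in a single run. Annotation gave a single symbol to 16545 of 32391 probe sets, several to 370 and none to 15476. Symbols came from that annotation, 37 of 38 members matched the RefSeq table by gene ID with the same symbol, and MARS2 was not matched by gene ID. FARS2 had a second probe set. No sample column was left unused (0).

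The deposited log2 values were fitted with limma 3.58.1 (lmFit and eBayes) in R 4.3.3 on all 32391 probe sets without a filter, within each line (3 residual degrees of freedom) and on all arrays as 4 group means (6). Tests were two-sided, and p-values were adjusted over all probe sets by Benjamini-Hochberg. The code was tested on simulated data. The number of arrays limits the precision. Values on each array are given for FARSA, for members past adjusted p 0.05 in a treatment comparison, for up to 3 with the smallest p in each direction per treatment comparison, and for the 3 largest called differences in each direction between untreated lines. At most 4 genes per pathway list were named. The rule for untreated lines covered FARSB, the partner subunit of FARSA. Members and lists were chosen with earlier results of these data known. Alternatives were a variance trend with robust fitting, quantile and cyclic loess normalization, a filter on dim probe sets, single-symbol probe sets alone, a joint fit, the mean of all probe sets of a symbol, a replicate block and leaving out each array.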

Additional observations from a re-analysis of the deposited data

Results flagged for a closer look

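In 7 members every treated CLBL-1 array lay above every CLBL-1 control and every treated 17-71 array lay below every 17-71 control. This held for 2.22% of all probe sets. The reverse held for 0 members and 1.76% of all probe sets. The response in CLBL-1 minus that in 17-71 was 0.52 for YARS2, 0.47 for CARS1, 0.46 for RARS2, 0.32 for MARS1, 0.30 for SARS1, 0.28 for TARS1 and 0.17 for GARS1. The test of the difference itself was passed by none of the 7 (limma, adjusted p from 0.175 for YARS2 to 0.579 for GARS1). CARS1, GARS1, MARS1, SARS1 and TARS1, the cysteinyl, glycyl, methionyl, seryl and threonyl enzymes of the cytosol, belong to the 13 listed ATF4 targets. That list holds 13 of the 19 cytosolic members. YARS2 and RARS2 are mitochondrial.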

How the results depend on the processing

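No called value changed direction under any alternative, though the common medians, both near 0, took either sign with an array left out. In CLBL-1 the count of members called went from 0 to 5 with a variance trend, with single-symbol probe sets and with the joint fit, and to 6 with the filter on dim probe sets, and in 17-71 it was 0 throughout. The common count of 3 became 7 with the trend, 6 with single-symbol probe sets, 6 with the filter, 4 with quantile normalization, cyclic loess or the mean of probe sets, and 1 to 2 with an array left out. QARS1 joined in these 6 settings, FARS2 and VARS2 in the first 3 and RARS1 with the trend. Over all tested probe sets the common calls were 1404 of 32391 with the trend, 925 of 16545 with single-symbol probe sets and 1421 of 17651 with the filter. They were 511 of 32391 with quantile normalization, 553 of 32391 with cyclic loess and 536 of 31793 with the mean of probe sets. With an array left out and at least 2 arrays kept in every group, they were 185 to 305 of 32391. The CLBL-1 and 17-71 totals are given with the results of each line above. The response count of 0 became 3 with the trend and 1 with the filter, beside 288 of 32391 and 176 of 17651 probe sets. Deviations of same-numbered arrays from their group means correlated at -0.026 to 0.0079. In a group of 2 arrays the deviations mirror each other, so these values cannot settle whether replicate numbers pair the arrays. With a replicate block the common count was 0 members and 0 of 32391 probe sets (limma adjusted p = 0.3 for PARS2, 0.342 for IARS1 and 0.363 for FARSA). The block put the 17-71 mitochondrial median at -0.093 and the response medians at 0.090 (cytosolic) and 0.177 (mitochondrial). With cyclic loess the cytosolic medians were 0.075 in CLBL-1, -0.085 in 17-71, -0.033 in common, 0.049 for the response and 0.143 between untreated lines, and the mitochondrial ones 0.091 for the response and -0.171 between untreated lines. With quantile normalization they were 0.167 (cytosolic) and -0.083 (mitochondrial) between untreated lines, and 0.087 for the mitochondrial response. With an array left out, cytosolic medians ranged from 0.083 to 0.115 in CLBL-1, -0.073 to -0.038 in 17-71, -0.024 to 0.0051 in common, 0.041 to 0.115 for the response and 0.212 to 0.316 between untreated lines. Mitochondrial medians ranged from 0.0019 to 0.063, -0.143 to -0.060, -0.015 to 0.022, 0.104 to 0.218 and -0.112 to -0.075 in the same order. The causes were not tested.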
